A study of Mus musculus with 88 samples.

Results

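The 6 transcription factors followed here, which start or carry the interferon response, were Irf7, Irf9, Stat2, Irf1, Irf5 and Irf8, measured in whole blood of lupus-prone SNF1 mice. Each gene was found by its symbol in the annotation of the array, and the probe set with the highest mean signal over all arrays stood for it. The 6 members, of 17097 genes measured, had 8 probe sets between them, with a further probe set each for Stat2 and Irf8. SNF1 mice are the female offspring of SWR and NZB parents and develop lupus nephritis with age, and all groups shared this strain. The pristane-SNF1 mice received an intraperitoneal injection of pristane, a hydrocarbon oil, as young adults, and their blood was taken at weeks 2, 4, 8, 12 and 14 after it. Spontaneous disease was represented by untreated SNF1 mice at week 36, an age rather than a time after injection. Untreated, age-matched SNF1 mice were sampled at the same 5 weeks as the injected ones. Each of the 11 groups held 8 mice with 1 Affymetrix array each, 88 arrays in all. No group of mice at week 36 was free of disease, so age and disease cannot be told apart there. The mice at week 36 were chosen for their proteinuria by the methods of the study.

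Interferons of type I bind the receptor Ifnar1/Ifnar2, whose kinases Jak1 and Tyk2 phosphorylate Stat2. It joins Irf9 in ISGF3, the complex that switches on antiviral genes through the interferon-stimulated response element, and Irf7, itself a target of ISGF3, then drives further interferon alpha genes. Irf5 acts downstream of the endosomal Toll-like receptors, Irf1 is a classical target of interferon gamma, and Irf8 directs the formation of monocytes, dendritic cells and B cells. In humans, IRF5 is an established lupus susceptibility gene.

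The promoter windows of the genes that the results turn on are shown because Stat factors and ISGF3 act through short elements in such DNA. They come from RefSeq (GRCm38.p6), run 5′ to 3′ along the gene from 250 bases before to 50 bases after the annotated start, and carry motif matches in capitals. The motifs searched were GAAANNGAAA, the core of the interferon-stimulated response element, on both strands (TTTCNNTTTC on the other), and TTCNNNGAA, the gamma-activated site bound by Stat dimers, which reads the same on both strands.
Irf7 (chr7:141266375-141266674, minus strand): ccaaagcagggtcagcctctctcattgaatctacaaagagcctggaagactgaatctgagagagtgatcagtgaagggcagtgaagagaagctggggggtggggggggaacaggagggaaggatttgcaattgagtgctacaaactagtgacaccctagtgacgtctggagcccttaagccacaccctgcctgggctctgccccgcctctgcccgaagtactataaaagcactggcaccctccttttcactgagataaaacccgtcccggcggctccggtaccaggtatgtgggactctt
Irf9 (chr14:55603735-55604034, plus strand): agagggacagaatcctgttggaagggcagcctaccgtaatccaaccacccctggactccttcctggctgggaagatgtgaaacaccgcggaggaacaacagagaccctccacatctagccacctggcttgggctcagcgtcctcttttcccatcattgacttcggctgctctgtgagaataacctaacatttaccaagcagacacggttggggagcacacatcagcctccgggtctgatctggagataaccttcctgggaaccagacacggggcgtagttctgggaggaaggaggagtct
Stat2 (chr10:128270248-128270547, plus strand): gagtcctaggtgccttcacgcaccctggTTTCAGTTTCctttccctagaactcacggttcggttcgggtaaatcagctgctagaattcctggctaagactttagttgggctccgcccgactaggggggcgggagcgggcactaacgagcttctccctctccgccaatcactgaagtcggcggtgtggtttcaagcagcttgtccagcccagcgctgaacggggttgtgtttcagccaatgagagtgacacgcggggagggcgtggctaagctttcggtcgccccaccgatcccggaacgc
Irf1 (chr11:53769764-53770063, plus strand): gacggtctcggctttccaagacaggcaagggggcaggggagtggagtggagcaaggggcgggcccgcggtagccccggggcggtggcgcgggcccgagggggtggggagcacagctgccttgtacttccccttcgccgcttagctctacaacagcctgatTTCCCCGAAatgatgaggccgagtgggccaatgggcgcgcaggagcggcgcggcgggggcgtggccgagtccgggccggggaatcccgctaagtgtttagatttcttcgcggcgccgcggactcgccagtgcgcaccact
Irf8 (chr8:120736108-120736407, plus strand): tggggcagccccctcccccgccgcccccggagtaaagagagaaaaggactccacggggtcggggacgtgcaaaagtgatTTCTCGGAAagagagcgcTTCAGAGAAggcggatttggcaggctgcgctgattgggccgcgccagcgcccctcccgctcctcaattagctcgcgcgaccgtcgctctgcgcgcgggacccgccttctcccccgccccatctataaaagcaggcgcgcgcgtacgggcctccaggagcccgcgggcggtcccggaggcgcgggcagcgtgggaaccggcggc
The window of Stat2 held 1 response element, TTTCAGTTTC, at bases -222 to -213 from the start. The Irf1 window held 1 gamma-activated site, TTCCCCGAA, at bases -90 to -82, and that of Irf8 held 2, TTCTCGGAA and TTCAGAGAA. None of these matches overlapped another. The letters of either motif were not present in the windows of Irf7, Irf9 and Irf5, nor in the further windows of Irf9, Irf1 and Irf8 at other starts. Of 32851 such windows across the mouse genome, 3.44% held the response element core and 8.3% the gamma-activated site. A match is a run of letters and not evidence that a factor binds there.

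Signals are given as log2 values, so that a difference of 1 is a doubling, and levels are compared only within a probe set. A gene passed when limma's Benjamini-Hochberg adjusted p over 45037 probe sets was under 0.05. One library went against its label. In replicate 1 of the pristane mice at week 4, Irf7 stood at 6.58, against 9.86 to 10.84 in the other 7 mice of that group and 6.59 to 7.58 in untreated mice of that week. Its mean signal over 18 target genes of ISGF3 was 6.21, against 7.52 to 8.34 in the other 7 and 5.87 to 6.46 in untreated mice. Its mature neutrophil markers averaged 8.56, below the 9.38 to 10.46 of its group, and its B cell markers averaged 8.77, above the 7.31 to 8.17 of its group. Week 4 values of the members, and the list counts that moved, are therefore given with and without this mouse, an alternative for the lists that was chosen after seeing the data. Array signals differed in spread, with interquartile ranges of 2.74 to 3.78, and this spread followed the first principal component (r = -0.98 over 88 arrays, as a description).

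**Figure D1:**
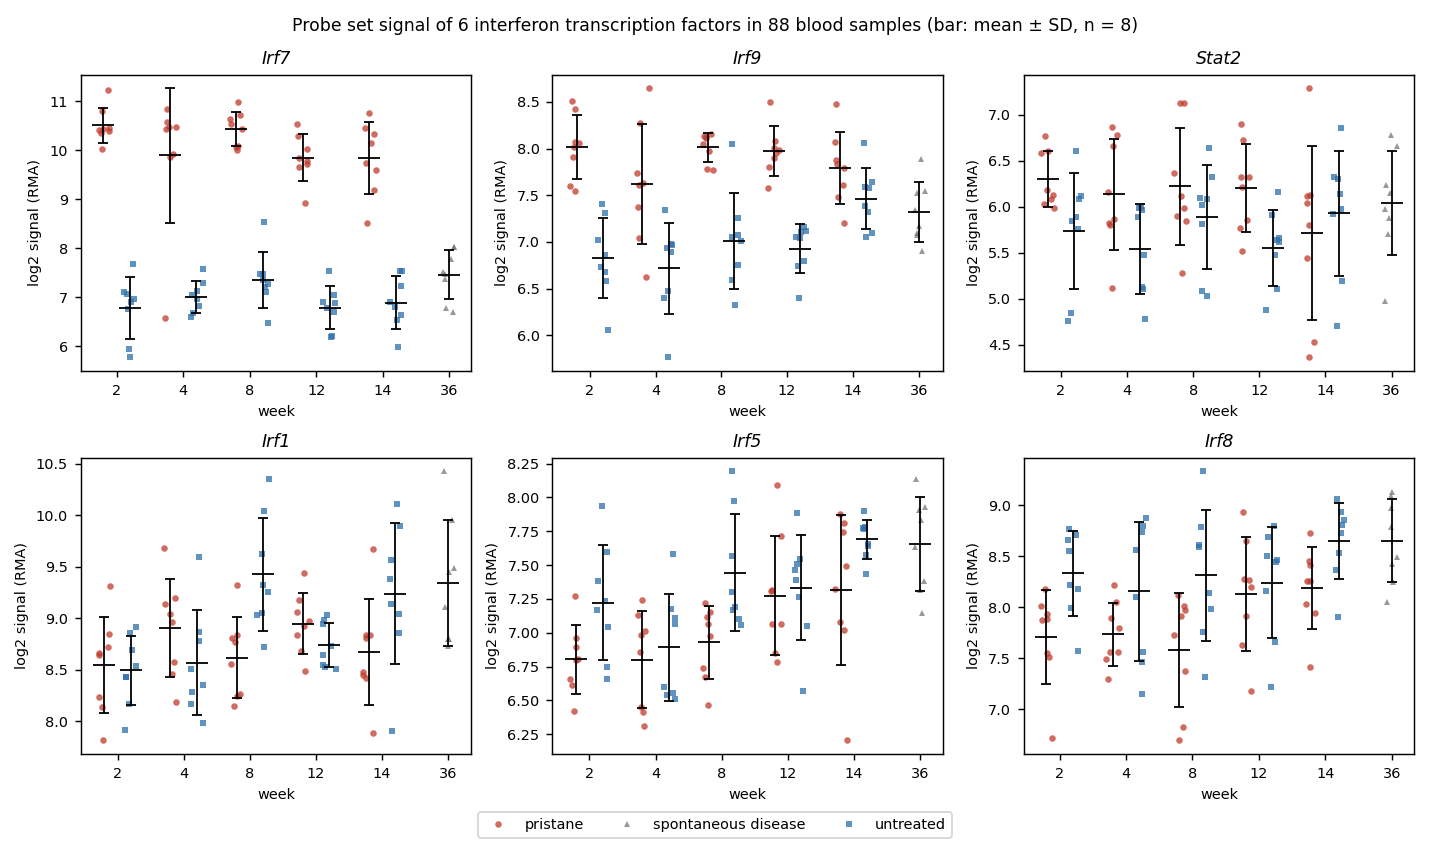
Log2 RMA signal of the 6 genes in each mouse by week, with pristane mice left of untreated mice, spontaneous disease at week 36, and black bars for the mean and SD (n = 8). Within each week the pristane mice stood above all untreated mice in Irf7, except for 1 mouse at week 4 at 6.58.

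Irf7 was the member that pristane raised most, at every week sampled. At week 2 its signal ran from 10.02 through a median of 10.42 to 11.22 in pristane mice, against 5.77 through 6.93 to 7.67 in untreated mice. The groups did not overlap, and the level was 13.3-fold higher in pristane mice (95% CI 8.68 to 20.5, adjusted p = 1.21e-15). At week 4 it ran from 6.58 through 10.45 to 10.84 in pristane mice, against 6.59 through 7.002 to 7.58 in untreated mice. The mouse that went against its label stood just below the lowest untreated mouse, and the other 7 stood above all untreated mice. The change was 7.38-fold with it (4.81 to 11.3, adjusted p = 7.92e-11) and 10.2-fold without it (7.23 to 14.5, adjusted p = 6.38e-18). At week 8, pristane mice held 10.0025 to 10.98 with a median of 10.49, against 6.47 to 8.53 with a median of 7.30 in untreated mice. At week 12 the pristane mice held 8.92 to 10.54 with a median of 9.81, against 6.18 to 7.54 with a median of 6.83 in untreated mice. At week 14 they held 8.51 to 10.75 with a median of 9.94, against 5.97 to 7.54 with a median of 6.85 in untreated mice. All 8 pristane mice stood above all 8 untreated mice at each of these 3 weeks. The changes were 8.45-fold (log2 3.08, 95% CI 2.46 to 3.70, adjusted p = 2.44e-11) at week 8, 8.37-fold (5.45 to 12.9, adjusted p = 1.21e-11) at week 12 and 7.75-fold (5.05 to 11.9, adjusted p = 1.94e-11) at week 14.

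Over the whole course, 38 of the 40 pristane mice had more Irf7 signal than the highest of the 40 untreated mice. The highest untreated value, 8.53, came from replicate 3 of week 8, and the next was 7.67. The 11 group means of Irf7 were put in order with all mice. The only gap between neighbours wider than the pooled within-group SD of 0.64 was 2.38, between pristane at week 14 and spontaneous disease. The 5 pristane groups filled the first 5 places, between 10.51 at week 2 and 9.84 at week 14. No gap among them, or among the 6 others, exceeded that SD. Here and for the other members the SD is that of single mice, so the gaps do not test whether group means differ. Without the mouse that went against its label, pristane week 4 had a mean of 10.37 and an SD of 0.35, against 9.89 and 1.38 with it. The pooled SD and the gaps were not recomputed without that mouse. The test for a pristane effect that differs among the 5 weeks was passed by 0 of 6 members, where 3.16% of all genes passed it. For Irf7 its adjusted p was 0.65, and the effect at week 14 minus that at week 2 was -0.78 (95% CI -1.66 to 0.09). The genes whose 11 group means followed Irf7 most closely were Ifit1 (r = 0.99), an antiviral effector that binds viral RNA, Oasl1 (r = 0.99), a relative of the oligoadenylate synthetases, and Steap4 (r = 0.99), a metalloreductase.

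Irf9, the DNA-binding subunit of ISGF3, was about doubled in pristane mice at weeks 2 to 12, and its difference at week 14 did not pass. At week 2 it ran from 7.55 through 8.04 to 8.51 in pristane mice, against 6.06 through 6.80 to 7.41 in untreated mice. At week 12 it ran from 7.57 through 7.97 to 8.50 in pristane mice, against 6.40 through 7.05 to 7.16 in untreated mice. The groups did not overlap at these 2 weeks, and the changes were 2.28-fold (1.74 to 2.99, adjusted p = 1.73e-05) and 2.07-fold (1.58 to 2.71, adjusted p = 0.000251). At week 4 it ran from 6.63 through 7.62 to 8.65 in pristane mice, against 5.76 through 6.92 to 7.34 in untreated mice, and 6 of 8 pristane mice stood above all untreated mice. The change was 1.87-fold with the mouse that went against its label (1.42 to 2.45, adjusted p = 0.00217) and 2.06-fold without it (1.57 to 2.69, adjusted p = 0.000146). At week 8 it was narrowly spread in pristane mice, from 7.77 through 8.09 to 8.16, against 6.32 through 7.03 to 8.05 in untreated mice. Replicate 3 was the untreated mouse at 8.05, the others of its group staying at or below 7.25, and the change was 2.00-fold (1.53 to 2.62, adjusted p = 0.000469). That mouse was also the highest of its group in Irf7, Stat2, Irf1 and Irf8, though not in Irf5. Its ISGF3 target genes averaged 7.44, against 6.21 to 6.81 in the other 7. With any 1 mouse left out, the week 8 log2 change of Irf9 stayed between 0.90 and 1.15, and that of Irf7 between 2.95 and 3.25.

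At week 14 Irf9 ran from 7.20 through 7.81 to 8.48 in pristane mice, against 7.05 through 7.48 to 8.06 in untreated mice. The groups overlapped, with 2 of 8 pristane mice above all untreated mice, and the change was 1.26-fold (0.96 to 1.65, adjusted p = 0.221). The untreated level differed between weeks as well. Untreated mice averaged 7.46 ± 0.32 at week 14 and 6.83 ± 0.43 at week 2 (SD, n = 8 each), a 1.55-fold difference (1.18 to 2.03, adjusted p = 0.0164). Array spread also differed between these groups, with a mean interquartile range of 3.53 in untreated mice at week 14 and 3.15 at week 2. With it as a covariate the Irf9 difference was 0.33 and did not pass (adjusted p = 0.423), nor did it with quantile normalization (adjusted p = 0.0903). The pristane effect was smaller at week 14 than at week 2 by -0.86 on the log2 scale (95% CI -1.41 to -0.31, adjusted p = 0.0452), and it was the only member of 6 to pass, where this effect was higher for 4.19% and lower for 2.67% of all genes. The test over all 5 weeks did not pass for Irf9 (adjusted p = 0.23). When untreated mice of week 12 replaced those of week 14, the change at week 14 was 0.87 (adjusted p = 0.0011) and the effect at week 14 minus week 2 was -0.32 (adjusted p = 0.651). Emilin2, an extracellular matrix glycoprotein (r = 0.97), Hnrnph2, a splicing factor (r = 0.98), and Rnf213, a large ubiquitin ligase (r = 0.99), had the group means most like those of Irf9.

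Stat2, a subunit of ISGF3, did not pass at any single week in the fit without covariates. With array interquartile range as a covariate it passed at week 12 (0.79, adjusted p = 0.0319). Its signal ran from 5.99 through 6.15 to 6.77 in pristane mice at week 2, against 4.76 through 5.86 to 6.60 in untreated mice. The groups overlapped at every week. The log2 differences were 0.56 at week 2 (95% CI -0.02 to 1.14, adjusted p = 0.321), 0.59 at week 4 (0.74 without the mouse that went against its label, adjusted p = 0.378 and 0.188), 0.33 at week 8 (adjusted p = 0.747), 0.65 at week 12 (adjusted p = 0.274) and -0.21 at week 14 (adjusted p = 0.619). At week 14 the pristane mice were widely spread, from 4.36 through 5.92 to 7.29, against 4.70 through 6.06 to 6.86 in untreated mice. The dimmer probe set of Stat2 gave 0.47, 0.18, 0.09, 0.63 and -0.13 at the 5 weeks, none of which passed, and 0.28 at week 4 without that mouse (adjusted p = 0.586). The signal of this probe set was low, with medians of 4.15 in pristane and 3.95 in untreated mice, against 3.89 over all values. No neighbouring group means of Stat2 differed by more than the pooled SD of 0.59. The closest group means were those of Myadm, a myeloid differentiation marker (r = 0.91), Kat2b, a histone acetyltransferase (r = 0.90), and Tpd52 (r = 0.90).

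The share of members that passed can be read against all genes. At weeks 2, 4, 8, 12 and 14, 2, 2, 2, 2 and 1 of the 6 members were higher in pristane mice, where 2.29%, 2.18%, 1.85%, 2.7% and 12.7% of all genes were. Past 2-fold as well as the threshold, 2, 1, 2, 2 and 1 members were higher, where 1.15%, 1.33%, 1.11%, 1.25% and 1.87% of all genes were. None was lower except Irf1 at week 8, where 0.778% of all genes were lower. The shares of lower genes were 1.29%, 0.801%, 1.06% and 9.72% at weeks 2, 4, 12 and 14.

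**Figure D2:**
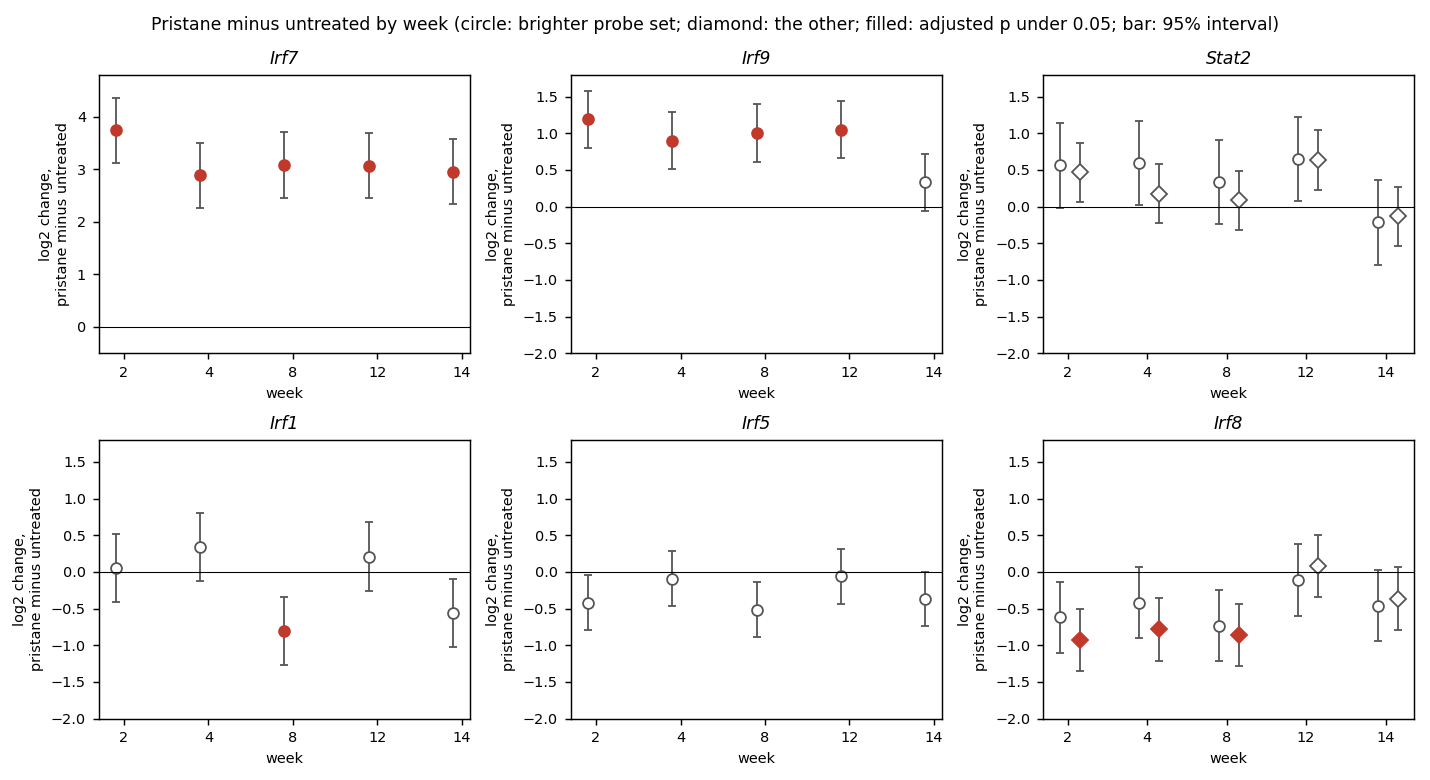
Log2 change of each gene, pristane minus untreated mice, by week, with 95% confidence intervals. Circles show the brighter probe set, diamonds the other probe set of Stat2 and Irf8, and filled symbols passed at an adjusted p under 0.05, as Irf7 did at all 5 weeks and Irf9 at weeks 2 to 12.

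None of Irf1, Irf5 and Irf8 passed as higher in pristane mice at any week. Irf1 ran from 7.81 through 8.65 to 9.32 in pristane mice at week 2, against 7.91 through 8.49 to 8.91 in untreated mice, a difference of 0.05 (95% CI -0.41 to 0.52, adjusted p = 0.942). At week 8 it ran from 8.15 through 8.66 to 9.32 in pristane mice, against 8.72 through 9.29 to 10.35 in untreated mice. Of the 8 pristane mice, 4 stood below all untreated mice, and the level was 1.75-fold lower in pristane mice (1.27 to 2.42, adjusted p = 0.0435). Without untreated replicate 3 of week 8, which held the 10.35, the difference was -0.67 and did not pass (adjusted p = 0.15). The mean of all 5 untreated groups as the control gave -0.27 at week 8 (adjusted p = 0.383). At weeks 4 and 12 the differences were 0.34 (adjusted p = 0.62, and 0.32 without the mouse that went against its label) and 0.21 (adjusted p = 0.804). At week 14 it ran from 7.88 through 8.64 to 9.67 in pristane mice, against 7.91 through 9.26 to 10.11 in untreated mice, a difference of -0.56 (95% CI -1.03 to -0.10, adjusted p = 0.0733). Only 1 of 8 pristane mice exceeded the untreated median at that week.

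The Irf1 level of untreated mice was not constant. Its means were 8.49 at week 2, 8.57 at week 4, 9.43 at week 8, 8.74 at week 12 and 9.24 at week 14, and the test for a difference among these weeks passed (adjusted p = 0.00773). Week 14 was 1.67-fold above week 2 in untreated mice (1.21 to 2.31, adjusted p = 0.0182). With array interquartile range as a covariate this Irf1 difference was 0.24 on the log2 scale and did not pass (adjusted p = 0.624). Untreated week 8 headed the order of Irf1 group means, followed by spontaneous disease at 9.34 and untreated week 14, and no neighbouring gap exceeded the pooled SD of 0.48. Irf9 and Irf5 also passed this test (adjusted p = 0.04 and 0.0244), so that 3 of 6 members did, where 11.8% of all genes did. With the same covariate Irf1 alone passed, with adjusted p of 0.552 for Irf9 and 0.226 for Irf5. Between untreated weeks 14 and 2 alone, 2 of 6 members were higher at week 14, where 10% of genes were, and none was lower, where 14.3% of genes were. Over the same untreated weeks 2, 4, 8, 12 and 14, the mean signal of the 6 classical monocyte markers was 7.76, 7.76, 8.41, 8.04 and 8.67, and that of the 6 patrolling monocyte markers was 6.12, 6.12, 6.88, 6.64 and 7.50. Between untreated weeks 14 and 2, 4 of the 6 classical and 5 of the 6 patrolling markers were higher at week 14. The part of these markers in the Irf1, Irf5 and Irf9 levels was not tested, and in whole blood fewer cells of a type and less RNA per cell cannot be told apart. The genes with group means most like those of Irf1 were Iigp1, an interferon-inducible GTPase (r = 0.93), Rnf130, a ubiquitin ligase (r = 0.92), and Dock1, an activator of Rac (r = 0.90). The signal of Iigp1 was low, with a mean of 2.98 against a median of 3.89 over all values.

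Irf5 had a negative difference at all 5 weeks, and none passed. It ran from 6.47 through 7.02 to 7.22 in pristane mice at week 8, against 7.06 through 7.25 to 8.19 in untreated mice, a difference of -0.52 (95% CI -0.89 to -0.14, adjusted p = 0.156). At week 14 it ran from 6.20 through 7.41 to 7.88 in pristane mice, against a narrow 7.43 through 7.71 to 7.90 in untreated mice. The groups overlapped, with 4 of 8 pristane mice below all untreated mice, and the difference was -0.37 (95% CI -0.74 to 0.00, adjusted p = 0.145). Weeks 2, 4 and 12 gave -0.42, -0.09 and -0.06 (adjusted p = 0.229, 0.915 and 0.952), and week 4 gave -0.15 without the mouse that went against its label (adjusted p = 0.798). Untreated week 14 and spontaneous disease led the group means at 7.69 and 7.66, pristane weeks 2 and 4 came last at 6.80 each, and no neighbouring gap exceeded the pooled SD of 0.38. Gng10, a G protein subunit (r = 0.98), Ace, the angiotensin-converting enzyme (r = 0.97), and Cx3cr1, the fractalkine receptor (r = 0.96), had the most similar group means. Ace and Cx3cr1 both stood on the list of patrolling monocyte markers.

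Irf8 also had a negative difference at all 5 weeks with its brighter probe set. At week 2 it ran from 6.72 through 7.88 to 8.18 in pristane mice, against 7.57 through 8.38 to 8.77 in untreated mice, a difference of -0.62 (95% CI -1.11 to -0.14, adjusted p = 0.159). At week 8 it ran from 6.69 through 7.82 to 8.12 in pristane mice, against 7.32 through 8.36 to 9.33 in untreated mice, a difference of -0.73 (95% CI -1.22 to -0.25, adjusted p = 0.101). No pristane mouse exceeded the untreated median of its week at weeks 2, 4, 8 and 14. The differences at weeks 4, 12 and 14 were -0.42, -0.11 and -0.46 (adjusted p = 0.508, 0.925 and 0.165), and that at week 4 was -0.49 without the mouse that went against its label (adjusted p = 0.371). The dimmer probe set passed at 3 weeks, with -0.93 at week 2 (adjusted p = 0.00457), -0.79 at week 4 (adjusted p = 0.0254, and -0.88 with 0.00909 without that mouse) and -0.86 at week 8 (adjusted p = 0.0113), and not at week 12 (0.08, adjusted p = 0.944) or week 14 (-0.36, adjusted p = 0.215). At week 2, 7 of 8 pristane mice stood below all untreated mice on this probe set. Spontaneous disease and untreated week 14 shared the highest Irf8 mean at 8.65, pristane week 8 was lowest at 7.58, and no neighbouring gap exceeded the pooled SD of 0.50. H2-Ab1, an MHC class II chain (r = 0.98), Snx17, a sorting nexin (r = 0.98), and Cd180, a Toll-like receptor relative of B cells (r = 0.97), followed its group means most closely.

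Markers of blood cell types moved with the pristane groups as well. Of 8 mature neutrophil markers, 8, 7, 7, 8 and 7 were higher in pristane mice at the 5 weeks, and their mean signal ran from 8.53 to 10.46 in pristane mice and from 7.59 to 9.33 in untreated mice. Of 9 B cell markers, 2, 4, 1, 3 and 7 were lower at the 5 weeks, and their mean signal ran from 6.99 to 8.77 in pristane mice and from 7.79 to 9.07 in untreated mice. Of 7 NK cell markers, 3, 1, 4, 0 and 4 were lower at those weeks, and 1, Prf1, was higher at week 14. Of 6 classical monocyte markers, 1, 3, 1, 3 and 2 were higher and none was lower. Of 6 patrolling monocyte markers, 1, 0, 2, 0 and 2 were lower and none was higher, with median log2 changes of -0.36, -0.21, -0.85, 0.21 and -0.52. Of 5 markers of plasmacytoid dendritic cells, the main producers of interferon alpha, 0, 0, 2, 1 and 2 were lower, and of 6 T cell markers 0, 0, 0, 1 and 2. At week 14 alone, all 7 platelet markers and 3 of 5 erythroid markers were higher. Without the mouse that went against its label, week 4 gave 8 mature neutrophil markers higher and 4 B cell and 2 NK cell markers lower. Their part in the member results was not tested beyond the correlations within groups given further on.

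Averaging the 5 weekly effects, a contrast added after the weekly values were seen, gave each member a single estimate from 40 pristane and 40 untreated mice. Irf7 was 8.84-fold higher on average (adjusted p = 5.56e-33), Irf9 1.86-fold (adjusted p = 6.2e-14) and Stat2 1.31-fold (log2 0.39, 95% CI 0.13 to 0.64, adjusted p = 0.0203). Irf8 was 1.38-fold lower (log2 -0.47, 95% CI -0.69 to -0.25, adjusted p = 0.000522) and Irf5 1.22-fold lower (log2 -0.29, 95% CI -0.46 to -0.12, adjusted p = 0.00572). Irf1 did not pass (log2 -0.15, 95% CI -0.36 to 0.05, adjusted p = 0.303). The other probe sets of Irf8 (log2 -0.57, adjusted p = 1.78e-06) and Stat2 (log2 0.25, adjusted p = 0.0372) passed in the same directions. That of Stat2 had a low signal, near the median of 3.89 over all values. So 3 of 6 members were higher, where 12.8% of all genes were, and 2 of 6 lower, where 13.7% were.

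In spontaneous disease, 0 of the 6 members passed as changed against untreated mice of week 14, and 0% of the 17097 genes did. Irf7 ran from 6.70 through 7.49 to 8.03 in spontaneous disease, against 5.97 through 6.85 to 7.54 in untreated mice, with 3 of 8 diseased mice above all untreated mice of that week. The ratio was 1.49 (95% CI 0.97 to 2.28, adjusted p = 1). The log2 differences of the other members were -0.15 for Irf9 (95% CI -0.54 to 0.24), 0.12 for Stat2 (-0.46 to 0.69), 0.11 for Irf1 (-0.36 to 0.57), -0.03 for Irf5 (-0.40 to 0.34) and 0.00 for Irf8 (-0.48 to 0.49). The choice of control mattered for Irf1 and Irf5. Spontaneous disease was higher than untreated week 2 for Irf1 (0.85, adjusted p = 0.0128), and higher than untreated week 4 for Irf1 (0.78, adjusted p = 0.0401) and Irf5 (0.77, adjusted p = 0.00851). The share of all genes that passed against these earlier controls was not computed.

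Pristane at week 14 and spontaneous disease, the late stages of both courses, differed in Irf7. It ran from 8.51 through 9.94 to 10.75 in pristane mice, against 6.70 through 7.49 to 8.03 in spontaneous disease, without overlap, and was 5.22-fold higher in pristane mice (3.40 to 8.01, adjusted p = 7.89e-08). It was the only member of 6 to pass, where 5.59% of all genes were higher and 4.42% lower. Irf9 differed by 0.48 (95% CI 0.09 to 0.87, adjusted p = 0.107) and Irf1 by -0.67 (95% CI -1.14 to -0.20, adjusted p = 0.0527). Of the other settings, 5 put 1 or both of these past the threshold, and the replicate block did so for Irf1 (adjusted p = 0.0435).

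Genes upstream of the members were followed as lists. For reading the counts, 2.29%, 2.18%, 1.85%, 2.7% and 12.7% of all genes were higher in pristane mice at the 5 weeks. Lower were 1.29%, 0.801%, 0.778%, 1.06% and 9.72% of all genes. Of 8 receptor and kinase genes, none was higher in pristane mice at any week, and the lower ones were Jak1 at weeks 2 and 14 (-0.63 and -0.52, adjusted p = 0.0233 and 0.0248) and Ifngr2, a chain of the interferon gamma receptor, at week 14 (-0.84, adjusted p = 0.00342). Il10rb, shared by the interleukin-10 and interferon lambda receptors, differed by 0.38 at week 14 (adjusted p = 0.236). Of 5 interferon genes, none passed at any week, and Ifna1, Ifna2 and Ifna4 differed by 0.33, -0.04 and 0.20 at week 14. The mean signal of these 5 genes was 2.98 to 3.23 in every group, below the median of 3.89 over all values, so a change may not be measurable at these levels. Of 16 genes that activate the Irf proteins, 1, 1, 2, 3 and 4 were higher at the 5 weeks, and 2 at week 4 without the mouse that went against its label, where Myd88 passed too (0.95, adjusted p = 0.0245). Ifih1, the cytosolic sensor of double-stranded RNA and also an ISGF3 target, was higher at every week (1.98 at week 2 and 1.29 at week 14), Myd88, the adaptor of the Toll-like receptors, at weeks 12 and 14 (0.93 and 0.84) and Mavs, the adaptor of the RNA sensors, at week 14 (0.91). The lower ones were Traf6 at week 4 (-0.87) and Tlr7 and Slc15a4 at week 14 (-0.94 and -0.69), all 3 of them named after their values were seen.

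Among relatives of the members, 0 of 5 other Stat genes were higher at any week with all mice, and Stat3 was at week 4 without the mouse that went against its label (0.62, adjusted p = 0.0278, named after its value was seen). Stat5a was lower at week 14 (-0.52, adjusted p = 0.0353), while Stat5b and Stat6 differed by 0.28 and 0.37. Of 6 other Irf genes none was higher. Irf4, which serves plasma cell differentiation, and Irf2bp2, a corepressor, were lower at week 14 (-1.40 and -1.13, adjusted p = 7.84e-06 and 1.59e-05), and Irf3 differed by -0.44 (adjusted p = 0.143). Of 10 feedback inhibitors, 2, 2, 1, 2 and 3 were higher at the 5 weeks, and 1 was lower, at week 14. Usp18, which blocks the type I receptor, was higher at all 5 weeks (3.87 at week 2 and 2.00 at week 14), and Socs3, an inhibitor of Jak signalling, at weeks 2, 4, 12 and 14 (1.90 at week 2 and 0.85 at week 14). Pias1 was the lower one (-0.63, adjusted p = 0.0101), and Ptpn1, named after its value was seen, was higher at week 14 alone (0.77, adjusted p = 0.0277).

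Of 18 ISGF3 targets, 13, 13, 12, 15 and 14 were higher at the 5 weeks and none lower. Their median log2 changes were 2.03, 1.62, 1.28, 1.71 and 1.15, against -0.02, 0.00, -0.01, 0.01 and 0.12 over all genes. At every week 10 of the 18 passed, among them Ifit1 (3.75 at week 2 and 2.54 at week 14), Oas2 (3.28 and 3.01), which senses double-stranded RNA, and Rtp4 (3.93 and 2.73). Of 18 targets of Irf1 and interferon gamma, 2, 3, 1, 5 and 2 were higher and 1 was lower at each week (5 higher at week 4 without the mouse that went against its label), and their medians were 0.35, 0.42, 0.01, 0.55 and -0.17. At week 14, the week of the last of these counts, 12.7% of all genes were higher and 9.72% lower. The lists were not tested against each other or against these shares. The lower gene at each week was Ciita, the master regulator of MHC class II (-0.93 at week 2 and -0.96 at week 14). Gbp7, a guanylate-binding protein, was higher at all 5 weeks (1.23 at week 2 and 0.58 at week 14) and Igtp, an immunity-related GTPase, at weeks 4, 12 and 14 (0.84 at week 14, adjusted p = 2.72e-05).

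**Figure D3:**
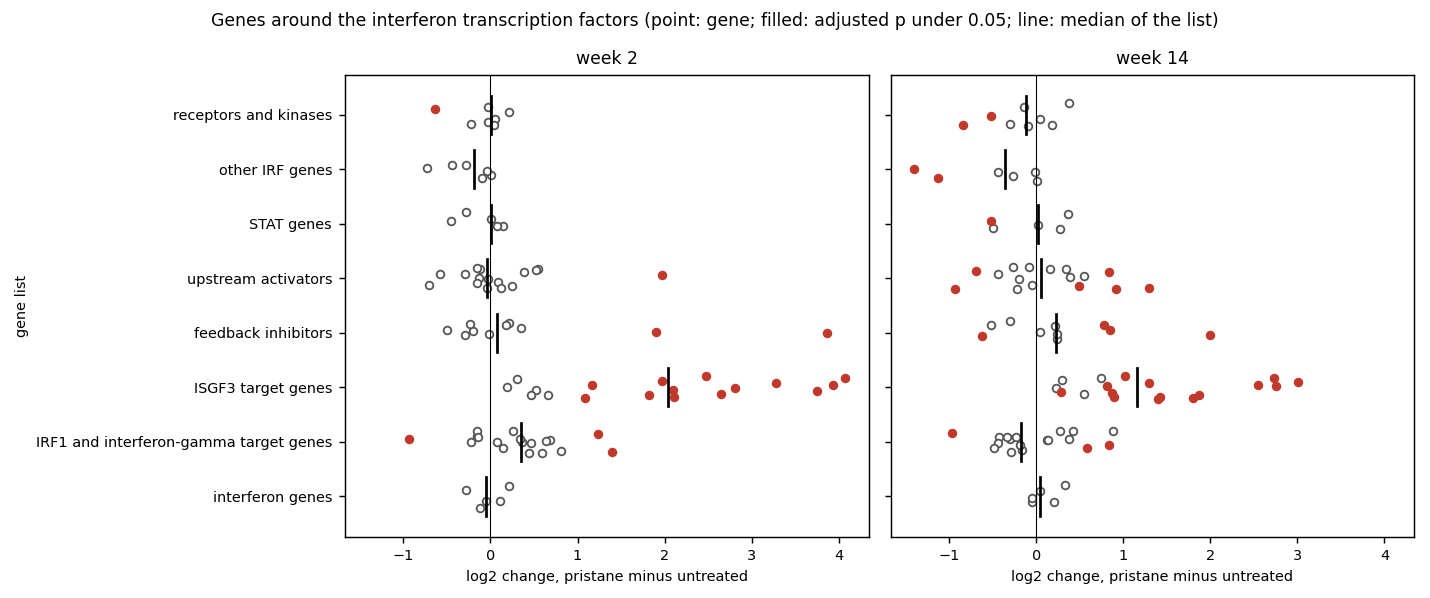
Log2 change, pristane minus untreated mice, of each gene of 8 lists at weeks 2 and 14, where filled points passed at an adjusted p under 0.05 and lines mark the median of a list. The medians of the ISGF3 target genes were 2.03 at week 2 and 1.15 at week 14, the highest of the 8 lists drawn.

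Mice of the same group also differed from each other, and the members followed each other in part. With group means removed, 10 of 15 pairs of members correlated over the 88 mice (permutation test within groups, two-sided, 100000 resamples, Benjamini-Hochberg over 15 pairs), and 9 of 15 did by Spearman's rho. With the interquartile range of each array also removed, 3 pairs passed. Irf9 and Irf1 had r = 0.54 (rho = 0.53, adjusted p = 3e-05 and 6e-05), which was 0.55 without the 2 mice farthest from the median of Irf9 and 0.41 with array spread removed (adjusted p = 0.0009). Irf5 and Irf8 had r = 0.47 (rho = 0.48, adjusted p = 3e-05 and 6e-05), 0.50 without the 2 farthest mice and 0.43 with array spread removed (adjusted p = 0.0009). Irf7 and Irf9 had r = 0.36 (rho = 0.24, adjusted p = 0.0133 and 0.0502) and 0.44 with array spread removed (adjusted p = 0.008). That relation rested on few mice, since r was 0.25 without the 2 farthest and, within the pristane mice, 0.31 with and -0.02 without the mouse that went against its label. In untreated mice it was 0.45, and 0.33 without replicate 3 of week 8. Irf7 and Irf1 did not pass as a pair (r = 0.12, adjusted p = 0.37), with r = -0.22 in the 40 pristane mice and 0.54 in the 40 untreated mice, a difference that was not tested.

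The members were also set against 5 list scores within groups, 30 relations chosen after the values were seen, of which 19 passed and 8 with array spread removed. Irf7 followed the ISGF3 target score at r = 0.70 (rho = 0.53, adjusted p = 3.75e-05 and 5e-05) and at 0.56 without the 2 farthest mice. With array spread removed r was 0.77 (adjusted p = 0.0001), and within the pristane mice it was 0.67 with and 0.32 without the mouse that went against its label. Irf9, Stat2 and Irf1 followed that score at r = 0.59, 0.56 and 0.53 (rho = 0.49, 0.55 and 0.57), and at 0.54, 0.50 and 0.46 with array spread removed, where all 3 passed. Without the 2 farthest mice these were 0.49, 0.57 and 0.49. Irf5 did not pass with it (r = 0.07, adjusted p = 0.557). Irf5 followed the patrolling monocyte score at r = 0.45 (rho = 0.42, adjusted p = 0.000136 and 0.0003), 0.43 without the 2 farthest mice and 0.41 with array spread removed (adjusted p = 0.00102). Stat2 followed the mature neutrophil score at r = 0.60 (rho = 0.57, adjusted p = 3.75e-05 and 5e-05), 0.55 without the 2 farthest mice and 0.45 with array spread removed (adjusted p = 0.0016). Irf8 followed the B cell score at r = 0.50 (rho = 0.52, adjusted p = 3.75e-05 and 5e-05) and 0.49 without the 2 farthest mice, but at 0.21 with array spread removed, where it did not pass. Irf7 and the mature neutrophil score did not pass (r = 0.21, adjusted p = 0.174), with r = 0.02 without the mouse that went against its label.

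**Figure D4:**
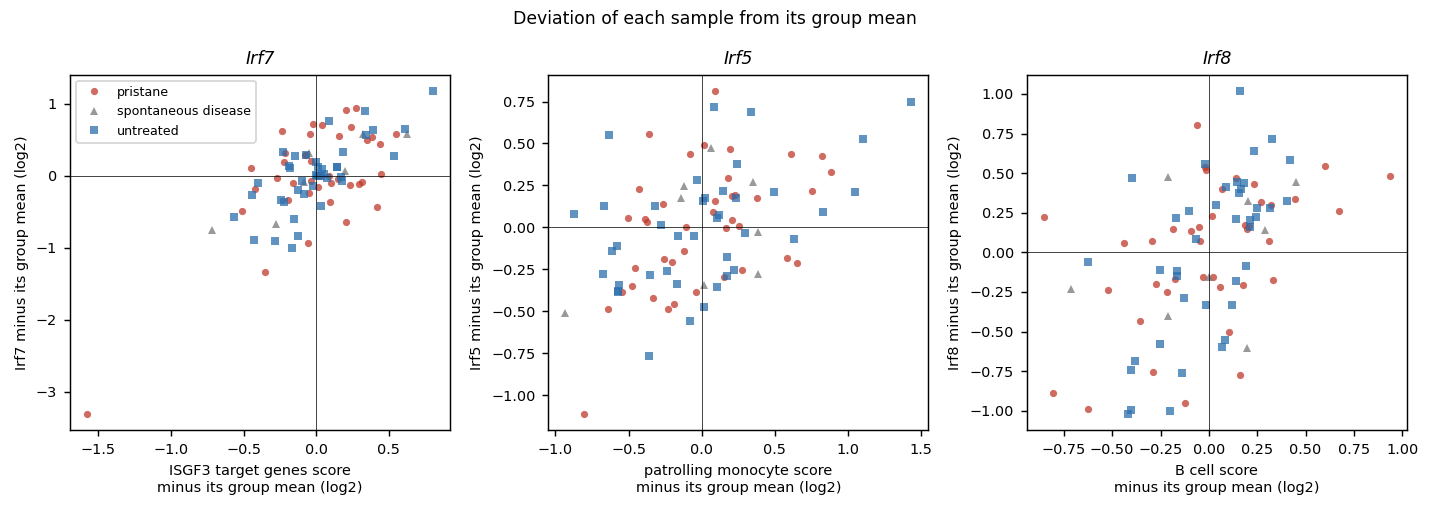
Deviation of each mouse from its group mean, for Irf7 against the ISGF3 target score, Irf5 against the patrolling monocyte score and Irf8 against the B cell score (all log2, 88 mice). The correlations were 0.70, 0.45 and 0.50, and the mouse at the lower left of the Irf7 panel is replicate 1 of the pristane group at week 4.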

How the data were processed

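Whole-blood RNA of 88 SNF1 mice was hybridised to Affymetrix HT MG-430 PM arrays, 1 for each mouse. As deposited, the values were log2 signals computed by the authors in Partek with RMA (robust multi-array average), and they ran from 0.736 to 13.8. No further scaling was applied. The table held 45141 probe sets. Leaving aside 104 controls, 45037 were tested, and the array annotation gave 28898 of these 1 gene, 551 several and 15588 none. A gene was represented by its brightest single-gene probe set. One model of 11 group means was fitted in R 4.3.3 with limma 3.58.1, leaving 77 residual degrees of freedom, and p-values were adjusted by Benjamini-Hochberg over all probe sets. The fit was tested on simulated data. List scores are mean log2 signals. Correlations used 100000 permutations within groups. The members, the gene lists and the tests were chosen with earlier results of these data known. Named list genes are the 3 of each list with the largest absolute moderated t at week 14, and neighbours the 3 genes with the highest r of group means, beside those named as chosen later. Arrays have no read depth, so precision is set by their number, 8 a group. Alternatives comprised other scalings, array spread as a covariate, array weights, a replicate block, other controls and leaving out each array.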

Additional observations from a re-analysis of the deposited data

Results flagged for a closer look

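Of 66 combinations of a member and a group, 2 held a mouse set far apart from the other 7, where chance alone gives about 1 in 20. Irf7 stood at 6.58 in replicate 1 of the pristane mice at week 4, with the next lowest mouse of that group at 9.86. Irf8 stood at 6.72 in replicate 8 of the pristane mice at week 2, with the next lowest at 7.51. The pristane effect on Irf9 differed between weeks by limma's test, being -0.86 at week 14 relative to week 2 (adjusted p = 0.0452). This call was lost in 19 of the 33 fits that left out 1 mouse, with quantile normalization (-0.75, adjusted p = 0.0667), with centring on the brightest probe sets (-0.72, adjusted p = 0.076), with array interquartile range as a covariate (-0.62, adjusted p = 0.154) and with untreated week 12 as the control (-0.32, adjusted p = 0.651). The test over all 5 weeks did not pass (adjusted p = 0.23).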

How the results depend on the processing

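No call of a member was reversed under any alternative run. Of 610 values of single members under alternatives other than leaving out a mouse, 558 kept their side of the threshold, 21 no longer passed and 31 newly passed. Of 1734 with 1 mouse left out, 1671 kept it, 46 no longer passed and 17 newly passed. The number of the 6 members that passed was 2, 2, 3, 2 and 1 for pristane against untreated mice at weeks 2, 4, 8, 12 and 14, 1 for pristane week 14 against spontaneous disease, 2 for untreated week 14 against week 2, 1 for the pristane effect at week 14 minus week 2, 0 for a pristane effect that differs among weeks and 3 for an untreated level that differs among weeks. With only the compared groups in the fit, week 4 gave 1. With quantile normalization, week 14 gave 2, pristane against spontaneous disease 3, untreated week 14 against week 2 gave 1, the week 14 minus week 2 effect 0, the pristane test among weeks 1 and the untreated test among weeks 1. With arrays centred on their brightest probe sets, the last 5 of these were also 3, 1, 0, 1 and 1. With array interquartile range as a covariate, the 6 were 2, 2, 0, 0, 1 and 1. With array weights, week 14 gave 2. With dim probe sets left out, pristane against spontaneous disease gave 2 and the pristane test among weeks 1. With the mean of the 5 untreated groups as the control, weeks 2, 4 and 14 gave 4, 4 and 2. With untreated week 12 in place of week 14, week 14 gave 2, the untreated comparison 0 and the week 14 minus week 2 effect 0. Smaller moves of a count were also seen. Week 8 gave 2 with array weights and with only the compared groups in the fit, where Irf1 no longer passed (adjusted p = 0.0555 and 0.0639), and 4 with quantile normalization and centring, where Irf8 passed (adjusted p = 0.0453 and 0.0452). With only the compared groups and with array weights, untreated week 14 against week 2 gave 3, and with only the compared groups the untreated test among weeks gave 2. With array interquartile range as a covariate, weeks 2 and 12 gave 3 each. Irf8 was the member added at week 2 (adjusted p = 0.0301) and Stat2 at week 12 (adjusted p = 0.0319). With the other probe set of Irf8, weeks 2, 4 and 8 gave 3, 3 and 4. Of 10 correlations among members, 3 passed with array interquartile range removed.

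With 1 mouse left out in turn, the counts ranged from 2 to 2 at weeks 2, 4 and 12, from 2 to 4 at week 8, from 1 to 2 at week 14 and against spontaneous disease, from 0 to 0 for spontaneous disease against untreated mice, from 1 to 3 for untreated week 14 against week 2, from 0 to 1 for the week 14 minus week 2 effect and the pristane test among weeks, and from 1 to 3 for the untreated test among weeks. The Irf1 call at week 8 was lost in 11 of 17 such fits. Irf9 at week 14 passed with array interquartile range as a covariate (log2 0.55, adjusted p = 0.0339) and with the mean of the untreated groups as the control (0.80, adjusted p = 2.66e-05), and Irf9 at week 4 did not pass with only the compared groups in the fit (adjusted p = 0.106). The cause of these changes was not tested. Such centring moved the median of all genes at week 14 to 0.23, against 0.12 as deposited.

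Same-numbered pristane and untreated mice deviated together at r over 0.1 in 11 of 40 pairs (range -0.24 to 0.55), and 8 of 40 mice correlated best with their own number. A chance level for these values was not computed, so they do not settle whether replicate numbers pair the mice. With the replicate block, pristane against spontaneous disease gave 2 members and the pristane test among weeks 1, and no other count of members changed. The labels give no plate or scan batch, so none could be examined. The limma p-values set differences of group means against the spread between single mice, pooled over the 11 groups of 8.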
